A study of Mus musculus with 12 samples.

Results

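The 10 ubiquitin-editing genes described here were Tnfaip3, Cblb, Cbl, Itch, Cyld, Tnip1, Tnip3, Tax1bp1, Rnf11 and Tollip. They were chosen by name, as genes for the A20 complex and for related enzymes and adaptors that attach, read or remove ubiquitin in inflammatory signaling. The expression table held 23863 genes, all 10 members included, in FPKM (fragments per kilobase of transcript and per unit of sequencing depth, so that levels of genes of unequal length can be compared). All 10 also passed the filter on low values, an average of 1 FPKM or more across 12 libraries, which left 10137 genes to test. Over the 12 libraries their mean levels ran from 9.59 FPKM for Cyld to 88.2 FPKM for Tnip1, so even the lowest lay at the 45.9th percentile of the genes tested.

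When a Toll-like or TNF receptor is engaged, ubiquitin ligases build chains linked through lysine 63 or through the first methionine on signaling proteins such as TRAF6, RIPK1 and NEMO, and these chains hold together the kinase complexes that activate NF-κB. The A20 protein, encoded by Tnfaip3, cuts and rebuilds such chains, and works with the adaptors TAX1BP1 and RNF11 and the ligase ITCH. ABIN1 and ABIN3, encoded by Tnip1 and Tnip3, bind A20, while CYLD removes the same kinds of chain independently of A20. CBL and CBL-B are ligases best known for marking activated receptors and tyrosine kinases for removal, and TOLLIP is an adaptor of Toll-like and IL-1 receptor signaling that binds ubiquitin. In macrophages several of these genes are themselves NF-κB targets and form a feedback loop.

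RNA was taken from bone marrow-derived macrophages (BMDM) of C57BL/6 mice aged 6 to 8 weeks, either wildtype or Mirc11-/- (mirn23a-/-), which lack the cluster that encodes miR-23a, miR-27a and miR-24-2. Marrow was grown for 7 d in medium conditioned by L929 cells, a source of M-CSF, and the macrophages were then polarized for 24 h. M1 cells received LPS at 100 ng/ml with IFNγ, at 50 ng/ml by the treatment protocol and at 10 ng/ml by the sample labels, and M2 cells received IL-4 and IL-13 at 20 ng/ml each. The 4 groups (wildtype M1, Mirc11-/- M1, wildtype M2 and Mirc11-/- M2) held 3 libraries each, with titles that join a genotype, a number and a state, such as Wt2260M1 or Ako2271M2, and values are listed below in the order of those numbers. The labels do not say whether these numbers are separate mice or whether marrow was pooled, so the p-values measure the spread between these libraries, which may be technical. No unstimulated macrophages were analysed here, and the labels name no conditional driver of the deletion.

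For 6 of the 12 libraries the title and the treatment label named opposite polarizations. Libraries were grouped by title, because the markers followed the titles. The M1 gene Nos2, which makes nitric oxide, was at 938 to 1630 FPKM under an M1 title and at 0.802 to 2.26 FPKM under an M2 title. The M2 gene Mrc1, a mannose receptor, was at 0.123 to 0.403 FPKM and at 229.9 to 301.0 FPKM. All 8 macrophage markers were present, with a summed level of 11468 to 14016 FPKM per library. The summed markers of B cells, T and NK cells, mast cells, erythroid cells and fibroblasts stayed under 1.77 FPKM, and those of dendritic cells reached 15.2 to 20.0 FPKM in M1 against 1.86 to 3.01 FPKM in M2. The dendritic sum in M1 was nearly all Ccr7, with means of 16.7 FPKM in wildtype and 15.6 FPKM in Mirc11-/-. Xcr1 was also higher in M1, at a low level. Its means were 0.702 FPKM in wildtype M1 and 1.05 FPKM in Mirc11-/- M1, against 0.0169 and 0.0330 FPKM in M2. Its range was 0.862 to 1.26 FPKM in Mirc11-/- M1 and 0.658 to 0.753 FPKM in wildtype M1, with no overlap. In wildtype M1 Flt3, Siglech and Clec9a had means of 0.0238, 0.0035 and 0.0326 FPKM. Zbtb46 went the other way, at 0.0755 FPKM in wildtype M1 against 1.03 FPKM in wildtype M2. Between the genotypes in M1, 4 of the 8 sums for other cell types did not overlap. Endothelial markers summed to 13.1 to 15.3 FPKM in Mirc11-/- M1 against 8.60 to 11.01 FPKM in wildtype M1, with Emcn and Cldn5 at 0 in both groups, and fibroblast markers to 0.697 to 1.48 FPKM against 0.203 to 0.287 FPKM. Neutrophil markers were lower in Mirc11-/- M1, at 7.84 to 10.4 FPKM against 12.6 to 16.4 FPKM with Elane at 0 in both groups (3.82 to 7.54 FPKM in M2), and so were erythroid markers, at 0.0347 to 0.0629 FPKM against 0.0736 to 0.168 FPKM. The neutrophil sum in M1 was mostly the single gene Mmp8, with a mean of 7.49 FPKM in Mirc11-/- against 12.4 FPKM in wildtype. Camp overlapped between the genotypes, and Mpo, Ltf, Ngp and Cxcr2 had means of at most 0.0166 FPKM in either M1 group. In M2 the sums of endothelial, dendritic and B cell markers were higher in Mirc11-/- and those of T and NK cells and of erythroid cells lower, with no overlap. The higher sums lay mostly in Pecam1 (mean 7.10 against 4.81 FPKM), Ccr7 (1.51 against 0.872 FPKM) and Cd79b (1.53 against 0.734 FPKM). The M1 markers themselves summed to 4124 to 4566 FPKM in Mirc11-/- M1 against 4823 to 5052 FPKM in wildtype M1. Most of that gap lay in Nos2, with a mean of 1020 FPKM against 1476 FPKM. Cxcl9 and Cxcl10 also had lower means in Mirc11-/- M1, while Il1b, Il6 and Il12b had higher ones. The M2 markers summed to 651 to 732 FPKM in Mirc11-/- M2 against 468 to 515 FPKM in wildtype M2. Retnla (mean 171 against 63.6 FPKM), Arg1 (76.4 against 37.6 FPKM), Mrc1, Chil3 and Clec10a had higher means there, and Egr2 a lower one (81.5 against 93.4 FPKM). In M1 the M2 markers summed to 6.54 to 6.78 FPKM in Mirc11-/- against 9.65 to 17.7 FPKM in wildtype. The part of these other cell types and of these differences in M1 and M2 markers in the results was not tested. In bulk RNA fewer cells of a type cannot be told apart from less RNA per cell. The deletion could not be checked from the table, since Mir23a and Mir24-2 were listed at 0 in all 12 libraries and Mir27a was listed above 0 in 1 wildtype M1 library alone.

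The mature strands of the 3 deleted miRNAs are shown first because they define which messages could carry their sites. They are given in RefSeq's version on GRCm38.p6, chromosome 8, plus strand, with the seed (bases 2 to 8 from the 5′ end) in capitals.
miR-23a-3p, chr8:84208563-84208583: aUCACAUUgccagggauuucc
miR-27a-3p, chr8:84208727-84208747: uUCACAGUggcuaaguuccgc
miR-24-3p, chr8:84208875-84208896: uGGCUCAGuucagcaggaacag
The seeds of miR-23a-3p and miR-27a-3p share their first bases and differ near the 3′ end, and that of miR-24-3p is unrelated. The mature miR-24-3p of a second gene, Mir24-1 on chromosome 13, has the identical sequence, and miR-27b-3p from the same chromosome has the seed of miR-27a-3p. The entry miR-23b-3p was unmatched.

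A match to such a seed (AATGTGA for miR-23a-3p, ACTGTGA for miR-27a-3p and CTGAGCC for miR-24-3p) was searched on the sense strand of 1 annotated 3′ UTR per gene (GENCODE M21, GRCm38). At least 1 match was present in 6 of the 10 members, against 40.2% of the 9438 tested genes with a 3′ UTR. The members' 3′ UTRs had a median of 2858 bases against 1136.5 bases for those genes, and the comparison was not matched for length. Each single miRNA matched 3 members, against 16.3% of genes for miR-23a-3p, 16.7% for miR-27a-3p and 18.8% for miR-24-3p.

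Tnfaip3 was the member with a match to all 3 miRNAs, and its sites are printed beside the single site of Cblb because both genes have the longest form of match (8 bases, with the A that follows the seed match) to miR-23a-3p. Capitals mark the match, and the coordinates are those of the capitals.
Tnfaip3, miR-23a-3p, chr10:19001057-19001064, minus strand: tcattgttAATGTGAAatggtt
Tnfaip3, miR-27a-3p, chr10:19002666-19002672, minus strand: acagtggtACTGTGAtccaga
Tnfaip3, miR-24-3p, chr10:19002394-19002400, minus strand: agcagttcCTGAGCCtggctg
Cblb, miR-23a-3p, chr16:52207618-52207625, plus strand: ctcttcatAATGTGAActtcct
Itch held 2 matches to miR-27a-3p, Cyld 1 to miR-27a-3p, Rnf11 1 to miR-24-3p, and Cbl 2 to miR-23a-3p and 1 to miR-24-3p. None of the 3 seed matches was found in the 3′ UTRs of Tnip1, Tnip3, Tax1bp1 and Tollip, which were the 4 members that differed between genotypes in M1. These matches are letters in a window and say nothing on whether a miRNA binds there.

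**Figure D1:**
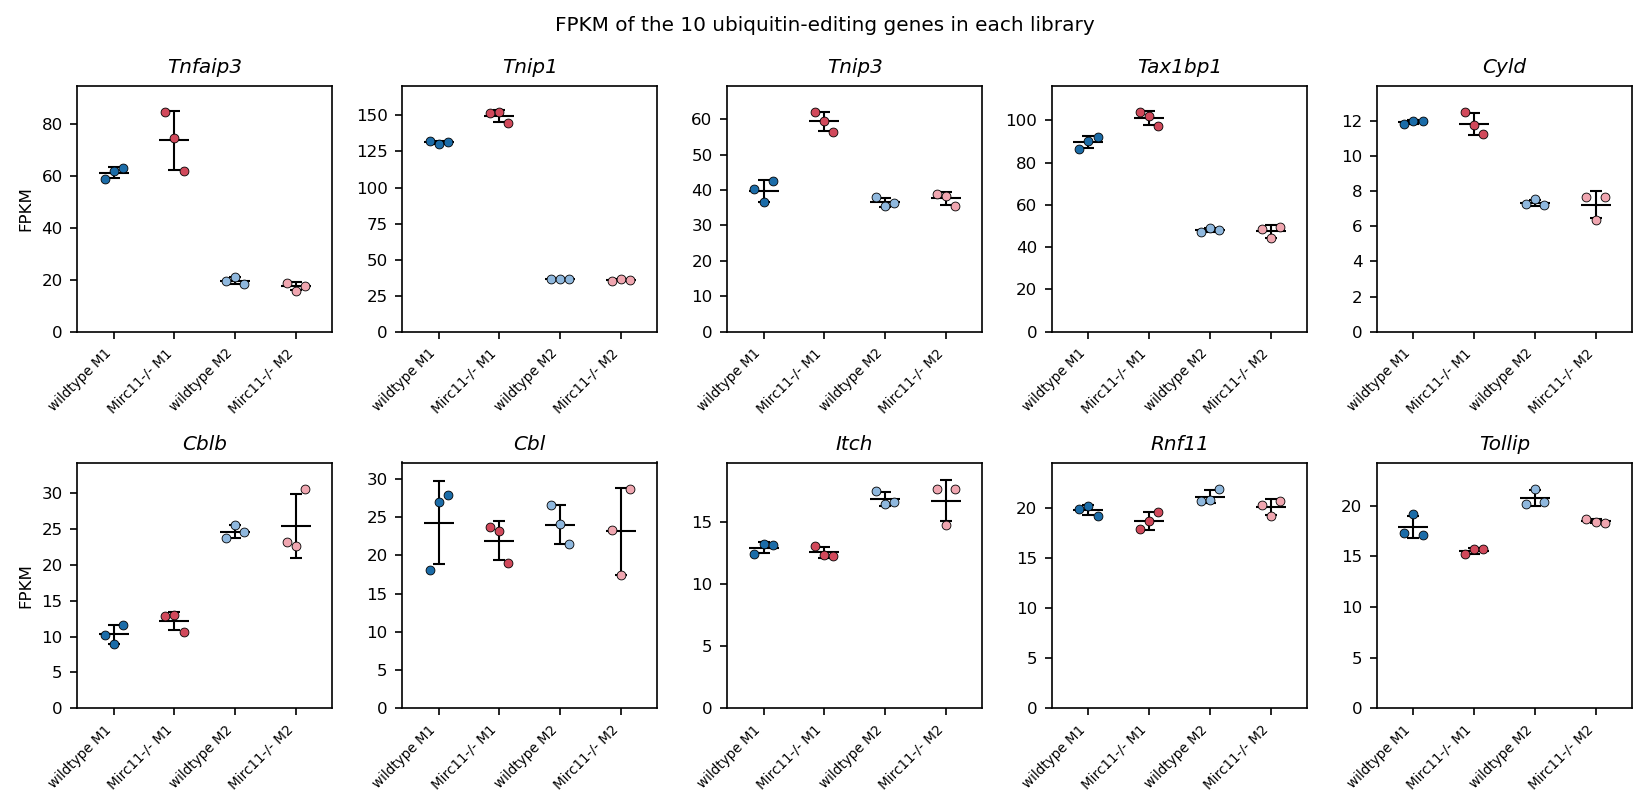
FPKM (vertical axes, each starting at 0) of the 10 genes in the 12 libraries. Points are single libraries, bars are the mean ± SD of the 3 libraries of a group. Tnfaip3, Tnip1, Tax1bp1 and Cyld stood higher in M1 than in M2, Cblb stood lower, and Tnip3 stood apart in Mirc11-/- M1 alone, at 56.5 to 61.9 FPKM.

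The members differed widely in level, and their order depended on polarization. In wildtype M1 the highest was Tnip1 (131 ± 1.01 FPKM, SD, n = 3), followed by Tax1bp1 (89.6 ± 2.83 FPKM), Tnfaip3 (61.1 ± 2.17 FPKM) and Tnip3 (39.8 ± 3.10 FPKM), and none of these neighbours overlapped. These 4 genes of the A20 complex and its binding partners made up the top of the order, and the remaining 6 lay between 10.3 and 24.3 FPKM. In wildtype M2 the order was led by Tax1bp1 (48.2 ± 0.772 FPKM), and Tnip1 (36.6 ± 0.209 FPKM) and Tnip3 (36.6 ± 1.23 FPKM) overlapped behind it. Cblb, the lowest of the 10 in wildtype M1, took place 4 in wildtype M2, and Tnfaip3 went from place 3 to place 8. From Cblb down to Tnfaip3 the neighbours in wildtype M2 all overlapped. Mirc11-/- cells kept this order apart from Cblb and Cyld, which changed places in M1, and Tnip1 and Tnip3, which changed places in M2, and in both cases the neighbours overlapped there.

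The first question was how polarization set the level of these genes. In wildtype cells 4 members were higher in M1 than in M2 (Tnip1, Tnfaip3, Tax1bp1 and Cyld), 3 were lower (Cblb, Itch and Tollip) and 3 did not pass the test (Cbl, Tnip3 and Rnf11). The test was limma's moderated test on log2(FPKM + 1) with Benjamini-Hochberg adjustment over all genes tested, and a difference on that scale is called a log2 change here. It understates the change of low genes. Of all genes tested 78.6% passed (26.6% higher, 52% lower), so the number of members called is near the background and their direction and size are the description. The libraries of the 2 groups did not overlap for 8 members, against 80.8% of genes. The median log2 change was 0.06 for the members and −0.19 for all genes tested. Among Mirc11-/- libraries 5 members were higher and 3 lower, against 80% of genes called, with Tnip3 the additional higher one, and libraries did not overlap for 8 members against 81% of genes. There the median was 0.30 for the members and −0.21 for all genes. The split between directions depended on scaling. When the FPKM were divided by median-of-ratios size factors, which bring the median of all genes to 0, the genes called higher in M1 rose from 2696 of 7970 to 3922 of 7822 in wildtype and from 2632 of 8106 to 3960 of 7911 in Mirc11-/-.

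Tnfaip3, the gene for A20, measured 58.6, 61.7 and 62.8 FPKM in the 3 wildtype M1 libraries, against 19.4, 21.0 and 18.4 FPKM in the 3 wildtype M2 libraries. Every M1 library was above every M2 library, at 3.12 times their mean (log2 change 1.59 ± 0.099 SE, adjusted p = 1.30e-08). The Mirc11-/- libraries measured 84.3, 74.3 and 61.8 FPKM in M1 and 18.9, 15.8 and 17.7 FPKM in M2, a ratio of 4.21 between the means (log2 change 2.01 ± 0.099 SE, adjusted p = 1.43e-09). The 3 tested genes whose log2(FPKM + 1) followed Tnfaip3 most closely over the 12 libraries were Dnajc1, Mgat4a and Zc3h12a, with Pearson r of 0.997, 0.996 and 0.996. Those correlations rest largely on the gap between M1 and M2, and within groups they were 0.83, 0.82 and 0.68.

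Tnip1, the gene for ABIN1, showed the largest log2 change of the 10 in both genotypes, with Tnfaip3 close to it in Mirc11-/-. It measured 132.4, 130.4 and 131.2 FPKM in wildtype M1 and 36.4, 36.7 and 36.8 FPKM in wildtype M2, 3.58 times as much (log2 change 1.81 ± 0.040 SE, adjusted p = 1.34e-12). The spread between libraries was small beside this gap. For Mirc11-/- the M1 mean was 4.20 times the M2 mean (log2 change 2.04, adjusted p = 5.21e-13). Its relative Tnip3, which encodes ABIN3, was nearly level in wildtype cells, with 40.2, 36.5 and 42.7 FPKM in M1 and 37.9, 35.5 and 36.3 FPKM in M2. Those groups overlapped, and the log2 change of 0.12 (95% interval −0.02 to 0.25) did not pass the test (adjusted p = 0.105). With median-of-ratios scaling it was 0.33 and passed, as it did with quantile normalization (0.20) and without Wt2261M1 (0.18). The same gene in Mirc11-/- cells was 1.58 times higher in M1 than in M2, with no overlap (log2 change 0.64, adjusted p = 9.11e-07).

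Tax1bp1, which encodes a ubiquitin-binding adaptor that brings A20 to its substrates, measured 86.5, 90.2 and 92.1 FPKM in wildtype M1 and 47.3, 48.9 and 48.3 FPKM in wildtype M2. The M1 mean was 1.86 times the M2 mean (log2 change 0.88, adjusted p = 8.51e-09), and in Mirc11-/- cells 2.13 times (log2 change 1.08, adjusted p = 1.26e-09). Cyld, the deubiquitinase that acts apart from A20, measured 11.8, 12.01 and 11.995 FPKM in wildtype M1 and 7.28, 7.54 and 7.22 FPKM in wildtype M2. Its ratio was almost the same in both genotypes, 1.63 in wildtype and 1.64 in Mirc11-/- (log2 changes 0.63 and 0.64, adjusted p = 1.27e-06 and 1.03e-06). Cyld lies on chromosome 8 with the deleted cluster, with 65 protein-coding genes between it and Mir23a.

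Cblb, the ligase CBL-B, was the member that stood lowest in M1 relative to M2. It measured 10.3, 8.997 and 11.6 FPKM in wildtype M1 and 23.8, 25.6 and 24.6 FPKM in wildtype M2, where it stood 2.39 times higher (log2 change −1.19 ± 0.11 SE, adjusted p = 9.03e-07). In Mirc11-/- cells it stood 2.09 times higher in M2 (log2 change −0.998, adjusted p = 4.40e-06). The genes most like it over the 12 libraries were Plk2, Galnt7 and Pip4k2a (Pearson r 0.982, 0.981 and 0.981, and 0.89, 0.82 and 0.70 within groups). Its close relative Cbl measured 18.04, 26.9 and 27.9 FPKM in wildtype M1 and 26.5, 24.0 and 21.4 FPKM in wildtype M2, so that the groups overlapped (log2 change −0.003, 95% interval −0.40 to 0.39). In the 6 libraries whose title and treatment label agree, Cbl was lower in wildtype M1 (log2 change −0.53). Wt2260M1 and Wt2260M2 are the only wildtype libraries there, so the wildtype comparison has no replicates. Its libraries were scattered, with SDs of 2.55 to 5.66 FPKM, and its interval was the widest of the 10. Its log2 change in Mirc11-/- cells was −0.05 (interval −0.45 to 0.34).

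Itch, a HECT-type ligase that works with A20, was modestly lower in M1: 12.4, 13.2 and 13.1 FPKM in wildtype M1 against 17.5, 16.5 and 16.6 FPKM in wildtype M2, a log2 change of −0.36 (adjusted p = 0.000228), and −0.38 in Mirc11-/- cells (adjusted p = 0.000134), where the call was lost under median-of-ratios scaling (−0.15, adjusted p = 0.0520). Opa1, Iqce and Dhx15 were the genes most like Itch (Pearson r 0.993, 0.990 and 0.988, and 0.96, 0.94 and 0.92 within groups). Tollip measured 17.3, 19.2 and 17.2 FPKM in wildtype M1 and 20.2, 21.7 and 20.4 FPKM in wildtype M2, with a log2 change of −0.20 (adjusted p = 0.00218) in wildtype and −0.23 (adjusted p = 0.000797) in Mirc11-/- cells. These values were close to the shift of the median gene (−0.19 and −0.21), and under median-of-ratios scaling they turned to 0.0028 and 0.0029. Rnf11, a small RING-domain partner of A20, was the most even of the 10, at 17.9 to 21.9 FPKM in every library, with a log2 change of −0.09 (interval −0.20 to 0.01) in wildtype and −0.10 (interval −0.20 to 0.01) in Mirc11-/- cells, and it turned to 0.11 and 0.14 and passed the test in both genotypes under median-of-ratios scaling.

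**Figure D2:**
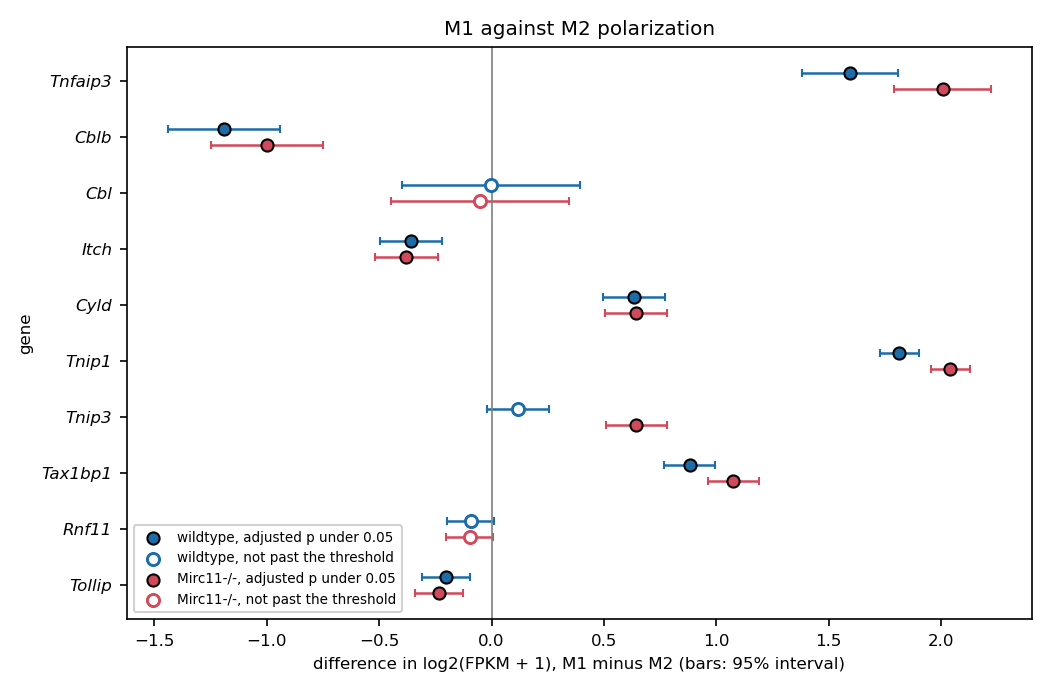
Differences between M1 and M2 in log2(FPKM + 1) (horizontal axis, M1 minus M2) for the 10 genes, in wildtype (blue) and Mirc11-/- (red) cells. Points are fitted differences, bars their 95% intervals, and filled points have an adjusted p under 0.05. Tnip1, Tnfaip3, Tax1bp1 and Cyld lie to the right of 0 in both genotypes, Cblb and Itch to the left, and Tnip3 is filled in Mirc11-/- alone.

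The promoters are shown because several of these genes moved together with polarization. RefSeq windows of 250 bases before to 50 bases after a transcription start (GRCm38.p6) were available for 8 of the 10 members, with Itch and Rnf11 unmatched. The 10-base kappaB consensus, the sequence bound by NF-κB dimers, was searched on both strands with overlapping matches merged. At least 1 match was present in the windows of 5 of the 8 members, against 4.51% of 32851 windows and 5.14% of 27025 genes. The 5 were Tnfaip3, Tnip1, Tax1bp1 and Cyld, the members higher in M1 in both genotypes, and Tnip3. No match was found in the windows of Cblb, Cbl and Tollip. The windows of the 3 genes for A20 and the ABIN proteins follow, 5′ to 3′, with the matches in capitals.
Tnfaip3, chr10:19015361-19015660, minus strand: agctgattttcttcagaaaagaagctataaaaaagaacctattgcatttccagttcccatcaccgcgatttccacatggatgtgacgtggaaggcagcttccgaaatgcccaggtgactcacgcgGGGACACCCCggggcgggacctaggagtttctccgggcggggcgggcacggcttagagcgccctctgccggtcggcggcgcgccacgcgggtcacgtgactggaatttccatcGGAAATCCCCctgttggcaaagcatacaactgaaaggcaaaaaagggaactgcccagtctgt
Tnip1, chr11:54962891-54963190, minus strand: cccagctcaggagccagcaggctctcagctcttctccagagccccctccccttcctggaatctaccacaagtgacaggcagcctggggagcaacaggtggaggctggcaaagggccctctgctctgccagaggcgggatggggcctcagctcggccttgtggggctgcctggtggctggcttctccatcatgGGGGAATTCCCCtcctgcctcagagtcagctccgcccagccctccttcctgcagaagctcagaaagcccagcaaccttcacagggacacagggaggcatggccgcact
Tnip3, chr6:65590148-65590447, plus strand: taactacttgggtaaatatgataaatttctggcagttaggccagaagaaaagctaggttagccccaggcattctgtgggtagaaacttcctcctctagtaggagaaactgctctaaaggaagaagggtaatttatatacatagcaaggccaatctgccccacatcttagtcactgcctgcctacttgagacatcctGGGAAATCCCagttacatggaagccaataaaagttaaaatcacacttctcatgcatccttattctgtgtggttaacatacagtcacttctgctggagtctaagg
The Tnfaip3 window held 2 separate matches, and a second Tnfaip3 window further into the gene held none. Tax1bp1 also had 2 windows. Its match began at base 285 of the later window, after the transcription start, and the earlier window held none. The match of Tnip3 reads the same pattern on both strands, and the capitals of Tnip1 are overlapping matches on both strands. A match describes the letters of the window and is not evidence that NF-κB bound there in these cells.

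The second question was what loss of the Mirc11 cluster did to these genes. In M1 macrophages 3 members were higher in Mirc11-/- than in wildtype (Tnip3, Tnip1 and Tax1bp1), 1 was lower (Tollip) and 6 did not pass the test. Of all genes tested 13.9% passed (5.99% higher, 7.96% lower), and under median-of-ratios scaling the higher genes went from 607 of 1414 to 796 of 1440. The libraries of the genotypes did not overlap for 4 members, the same 4, against 31.5% of genes. The median log2 change was 0.08 for the members and −0.02 for all genes. Tnip3 alone of the 4 was still called in a fit of the M1 libraries by themselves, and none was called with grouping by the treatment label.

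Tnip3 differed most. It measured 40.2, 36.5 and 42.7 FPKM in the wildtype M1 libraries and 61.9, 59.6 and 56.5 FPKM in the Mirc11-/- M1 libraries. The lowest Mirc11-/- library lay above the highest wildtype library, and the means differed by 1.49 times (log2 change 0.57 ± 0.063 SE, adjusted p = 0.000201). Without any one library the log2 change stayed between 0.51 and 0.62 and the adjusted p between 0.000237 and 0.00178.

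Tnip1 followed in the same direction with a smaller step, from 132.4, 130.4 and 131.2 FPKM in wildtype M1 to 151.3, 152.1 and 144.8 FPKM in Mirc11-/- M1. The means differed by 1.14 times (log2 change 0.18 ± 0.040 SE, adjusted p = 0.0103). The groups did not overlap, and the adjusted p was 0.0547 without Ako2272M1. Tax1bp1 rose from 86.5, 90.2 and 92.1 FPKM to 103.8, 102.0 and 97.4 FPKM, also with no overlap, at a ratio of 1.13 (log2 change 0.17 ± 0.052 SE, adjusted p = 0.0482). That call sat at the threshold. It was lost without any 1 of the 6 M1 libraries, the 3 wildtype M2 libraries or Ako2271M2 (adjusted p from 0.0506 to 0.145), and held in 5 of 19 alternatives.

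Tollip was the member that fell. It measured 17.3, 19.2 and 17.2 FPKM in wildtype M1 and 15.2, 15.7 and 15.8 FPKM in Mirc11-/- M1, 0.870 times the wildtype mean (log2 change −0.19 ± 0.049 SE, adjusted p = 0.0267). The highest wildtype library, Wt2261M1, stood apart from the others of its group, and without it the log2 change was −0.14 and the adjusted p 0.107. The adjusted p was also above 0.05 without Ako2271M1 (0.0813), Ako2272M1 (0.0737) or Ako2273M1 (0.05004).

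Tnfaip3, with seed matches for all 3 miRNAs, measured 58.6, 61.7 and 62.8 FPKM in wildtype M1 and 84.3, 74.3 and 61.8 FPKM in Mirc11-/- M1. Ako2271M1 and Ako2272M1 lay above all wildtype libraries and Ako2273M1 lay among them. The log2 change was 0.25 (95% interval 0.04 to 0.47) and did not pass the adjusted test (adjusted p = 0.115), while without Ako2273M1 it was 0.37 with an adjusted p of 0.0176. Cblb, with the 8-base match to miR-23a-3p, measured 10.3, 8.997 and 11.6 FPKM against 12.8, 13.0 and 10.7 FPKM, with a log2 change of 0.22 (interval −0.03 to 0.47, adjusted p = 0.231). Here too Ako2271M1 and Ako2272M1 lay above the wildtype libraries and Ako2273M1 among them.

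The other 4 members with seed matches did not pass the test either. Cbl measured 23.7, 23.1 and 19.0 FPKM in Mirc11-/- M1, inside the wildtype range of 18.04 to 27.9 FPKM (log2 change −0.12, interval −0.52 to 0.27). Itch measured 13.1, 12.4 and 12.3 FPKM against 12.4, 13.2 and 13.1 FPKM (log2 change −0.04, interval −0.18 to 0.10). Cyld, at 12.5, 11.8 and 11.2 FPKM in Mirc11-/- M1, had a log2 change of −0.01 (interval −0.15 to 0.13), and Rnf11, at 17.9, 18.7 and 19.6 FPKM, one of −0.07 (interval −0.18 to 0.03). The intervals of Itch, Cyld and Rnf11 all lay within −0.18 to 0.13, and that of Cbl was wider.

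**Figure D3:**
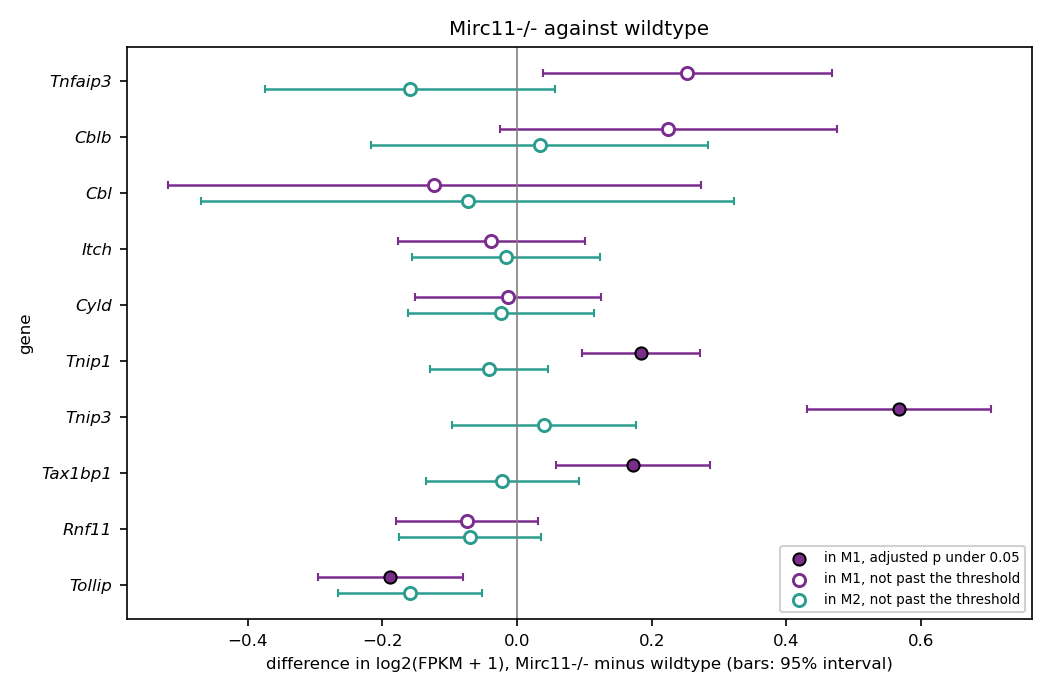
Differences between Mirc11-/- and wildtype in log2(FPKM + 1) (horizontal axis, Mirc11-/- minus wildtype) for the 10 genes, in M1 (purple) and M2 (green). Points are fitted differences, bars their 95% intervals, and filled points have an adjusted p under 0.05. In M1 the points of Tnip3 (0.57), Tnip1 (0.18), Tax1bp1 (0.17) and Tollip (−0.19) are filled, and in M2 every point is open.

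In M2 macrophages none of the 10 members differed between the genotypes in the limma test, against 4.59% of all genes called, and 1 member, Tollip, had an unadjusted p under 0.05, against 18.4% of all genes. The median log2 change was −0.03 for the members and 0.004 for all genes. Tollip measured 20.2, 21.7 and 20.4 FPKM in wildtype M2 and 18.7, 18.4 and 18.3 FPKM in Mirc11-/- M2, with no overlap and with the same direction as in M1 (log2 change −0.16, 95% interval −0.27 to −0.05, adjusted p = 0.0953). Tnip1 was the only other member whose libraries did not overlap, against 23.6% of genes, but its step was small: 36.4, 36.7 and 36.8 FPKM in wildtype M2 against 34.9, 36.2 and 35.6 FPKM (log2 change −0.04, interval −0.13 to 0.05).

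The members that rose in Mirc11-/- M1 were close to wildtype in M2. Tnip3 measured 37.9, 35.5 and 36.3 FPKM in wildtype M2 and 39.0, 38.4 and 35.5 FPKM in Mirc11-/- M2 (log2 change 0.04, interval −0.10 to 0.18). Tax1bp1 measured 48.4, 44.2 and 49.8 FPKM in Mirc11-/- M2 (log2 change −0.02, interval −0.14 to 0.09). Tnfaip3, at 18.9, 15.8 and 17.7 FPKM, had a log2 change of −0.16 (interval −0.37 to 0.06), opposite in sign to M1. Cblb measured 23.2, 22.7 and 30.6 FPKM in Mirc11-/- M2, where Ako2273M2 stood apart (log2 change 0.03, interval −0.22 to 0.28). Cbl, Itch, Cyld and Rnf11 had log2 changes between −0.07 and −0.02.

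Whether the effect of the deletion differed between M1 and M2 was tested as the difference of the 2 log2 changes. Tnip3 was the only member that passed, with a difference of 0.53 ± 0.088 SE (95% interval 0.33 to 0.72, adjusted p = 0.0127), against 1.85% of all genes called. At an unadjusted p under 0.05 there were 4 members, against 14.2% of all genes. With the 6 libraries whose title and treatment label agree the Tnip3 difference was 0.56. Wt2260M1 and Wt2260M2 are the only wildtype libraries there, too few for a test. All 3 Mirc11-/- M1 libraries of Tnip3 lay above the other 9 libraries. Tnip1 differed by 0.23 (interval 0.10 to 0.35, adjusted p = 0.0712), Tnfaip3 by 0.41 (interval 0.11 to 0.72, adjusted p = 0.181) and Tax1bp1 by 0.19 (interval 0.03 to 0.35, adjusted p = 0.240), which did not pass. The Tnfaip3 difference was 0.53 with an adjusted p of 0.0392 without Ako2273M1, and that of Tnip1 passed with no filter on low genes (adjusted p = 0.0226) and under median-of-ratios scaling (adjusted p = 0.0496). For Tollip, which was lower in Mirc11-/- cells in both states, the difference was −0.03 (interval −0.18 to 0.12).

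**Figure D4:**
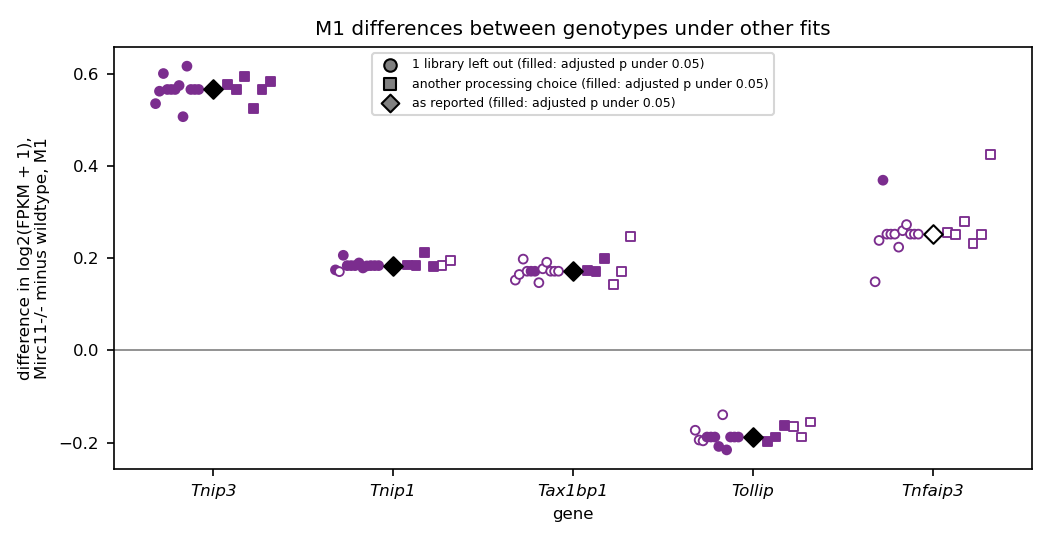
Differences between Mirc11-/- and wildtype M1 in log2(FPKM + 1) (vertical axis) for 5 of the genes, as reported (diamonds), with 1 library left out (circles) and under other processing choices (squares). Filled symbols have an adjusted p under 0.05, and the grouping by the treatment label is not drawn. Every symbol of Tnip3 is filled, between 0.51 and 0.62, those of Tnip1, Tax1bp1 and Tollip are mixed, and Tnfaip3 is filled for 1 fit.

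The wider machinery around the 10 genes was read from 5 lists of 75 genes, of which 70 were tested: deubiquitinases of the pathway, ligases and conjugating enzymes for lysine 63-linked and linear chains, substrates and readers of the chains, relatives of Itch with their adaptors, and partners of Cbl. In Mirc11-/- M1 5 of the 70 were higher and 4 lower, against 5.99% and 7.96% of all genes, so the number called is near the background. The median log2 change was 0.03 for the lists and −0.02 over all genes.

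The clearest change among them was in Ikbkg, which encodes NEMO, the subunit of the IκB kinase complex that reads ubiquitin chains. Ikbkg measured 15.0, 17.4 and 15.3 FPKM in wildtype M1 and 11.3, 10.9 and 10.9 FPKM in Mirc11-/- M1, with no overlap (log2 change −0.49, adjusted p = 0.000201). The Mirc11-/- M1 level was that of M2, where wildtype measured 11.2, 11.1 and 11.004 FPKM and Mirc11-/- 11.8, 11.1 and 11.7 FPKM, and the difference between the effects in M1 and M2 was −0.54 (adjusted p = 0.00607), the only one of the 70 that passed. Ikbkg overlaps G6pdx on the opposite strand, and whether reads were counted by strand is not given in the sources used here. G6pdx moved the other way, from 103.4 to 107.0 FPKM in wildtype M1 to 130.9 to 140.7 FPKM in Mirc11-/- M1, and it was also higher in Mirc11-/- M2.

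Ripk3, the gene for a necroptosis kinase, was the list member higher in Mirc11-/- cells in both states. It measured 11.2, 10.9 and 11.8 FPKM in wildtype M1 and 14.5, 16.0 and 14.6 FPKM in Mirc11-/- M1 (log2 change 0.38, adjusted p = 0.00332), and 8.74, 8.76 and 9.29 FPKM in wildtype M2 against 12.5, 14.5 and 11.96 FPKM in Mirc11-/- M2 (log2 change 0.49, adjusted p = 0.00150). Neither pair of groups overlapped. The other list genes named by p in M1 were Cd2ap, an adaptor that binds CBL (0.37), the Src-family kinase Lyn (0.28), the lysine 63 conjugating enzyme Ube2n (0.17), the Pellino-family ligase Peli2 (−0.30), Calcoco1, a relative of Tax1bp1 (−0.24), and the autophagy receptor Nbr1 (−0.16), as log2 changes. Of 19 alternatives the call held in 18 for Cd2ap and 17 for Peli2, but in 12 for Ube2n, 11 for Calcoco1, 10 for Lyn and 8 for Nbr1. With 1 library left out the adjusted p reached 0.0862 for Ube2n, 0.0780 for Calcoco1, 0.123 for Lyn and 0.110 for Nbr1. In M2 1 of the 70 was higher and 1 lower (2.5% and 2.09% over all genes), Ripk3 and the deubiquitinase Usp2 (log2 change −0.29, adjusted p = 0.0401). The Usp2 call held in 8 of 19 alternatives and in 5 of the 12 fits with 1 library left out, where the adjusted p reached 0.154.

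Between M1 and M2 the same lists split evenly in wildtype cells, with 24 of the 70 higher and 24 lower (26.6% and 52% over all genes), and with 27 higher and 23 lower in Mirc11-/- cells (26% and 54%). The higher genes included the ligases Birc3 (log2 change 1.66 in wildtype) and Traf2 (1.404), and the receptor-proximal kinases Irak2 (1.496) and Ripk2 (1.07). The lower ones included Usp2 (−1.81), Wwp1, a HECT-type ligase of the same family as Itch (−1.99), Sh3kbp1, a scaffold that binds CBL (−1.02), and the ubiquitin-binding protein Optn (−1.25). The list genes with the smallest p in Mirc11-/- cells were, among the higher ones, Irak2 (1.74), Birc3 (1.71), Lyn (1.95) and Syk (1.59), and among the lower ones Wwp1 (−2.11), Usp2 (−1.71), Nedd4l (−1.06) and Sh3kbp1 (−0.79). Wwp1 was lower in M1 as Itch was, and Sh3kbp1 as Cblb was, in both genotypes, but their lists went both ways. Of 10 tested Cbl partners 5 were higher and 4 lower in wildtype, and 5 higher and 3 lower in Mirc11-/- cells. Of 7 tested Itch relatives and adaptors 1 was higher and 4 lower in wildtype, and 2 higher and 4 lower in Mirc11-/- cells.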

How the data were processed

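The authors deposited FPKM per gene for 12 libraries of total RNA (NEBNext Ultra II kit). Per the submitters' processing notes, the tools were STAR 2.5.1, Cufflinks and DESeq with the mm9 build; their settings are not given in the sources used here. Absolute depth is unknown, since FPKM hold no counts. Steps in the low values put the relative depth of the libraries between 0.795 and 1.27 of that of Wt2260M1, with 14366 to 14708 genes above 0. Replicates of a group correlated at 0.988 to 0.997 and no pair was a copy. Further deposited tables held the authors' own fold changes and adjusted p-values per transcript and were not used.

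FPKM were tested as log2(FPKM + 1) with limma 3.58.1 in R 4.3.3 (intensity trend, 1 mean per group, 12 libraries, 8 residual degrees of freedom, two-sided, Benjamini-Hochberg within each of 5 comparisons, threshold 0.05), for genes with a mean of at least 1 FPKM. The fit was tested on simulated data. Values are mean ± SD of 3 libraries, SE or 95% intervals come from the fit, and levels were compared between genes as FPKM.

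Groups were taken from titles. The 10 members, the lists and the rule for named genes (all members; per comparison up to 4 list genes in each direction with the smallest p; 3 most alike genes for Tnfaip3, Cblb and Itch) were chosen with earlier results of these data known. Alternatives were a pseudocount of 0.1, no filter, median-of-ratios scaling, quantile normalization, only the groups compared, each library left out, a replicate block, grouping by the treatment label, and the 6 libraries whose title and treatment label agree. Sequences came from RefSeq (GRCm38.p6) and GENCODE M21, not the mm9 build of the FPKM, so no positions were joined. Overlapping annotations of the members were pseudogenes, a snoRNA and unclassified transcripts.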

Additional observations from a re-analysis of the deposited data

Results flagged for a closer look

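The effect of the Mirc11 deletion on Tnip3 differed between the polarization states by a test of the difference itself. It was 0.53 larger on the log2 scale in M1 than in M2 (adjusted p = 0.0127, limma), and Tnip3 was higher in all 3 Mirc11-/- M1 libraries than in any other library. No group held enough libraries for a test of single libraries that stand apart.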

How the results depend on the processing

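Each sentence below gives log2 changes or numbers of genes under 1 changed choice, and where no value shows the cause it was not tested. Of the 77 changes reported for single genes, 76 kept direction and side of the threshold with a pseudocount of 0.1, 75 with no filter, 63 with median-of-ratios scaling and 61 with quantile normalization.

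Under median-of-ratios scaling the sign turned for Cyld between genotypes in M1 (0.013), for Cbl (0.21), Rnf11 (0.11) and Tollip (0.0028) between wildtype M1 and M2, for Cbl (0.19), Rnf11 (0.14) and Tollip (0.0029) between Mirc11-/- M1 and M2, and for Itch (0.0082), Rnf11 (0.026) and Tollip (0.00012) in the difference of the genotype effects, where 2 members were called, as with no filter. Under quantile normalization it turned for Cyld between genotypes in M1 (0.0076), where 2 members were called, for Cbl (0.13) and Rnf11 (0.042) in wildtype and Cbl (0.093) and Rnf11 (0.059) in Mirc11-/- polarization, and for Itch (0.0081), Rnf11 (0.016) and Tollip (0.016) in the difference.

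Fitting the compared groups alone, with fewer degrees of freedom, called 869 genes and 1 member between genotypes in M1, in place of 1414 and 4, and 273 genes in M2, in place of 465. Using only the 6 libraries whose title and treatment label agree (2 residual degrees of freedom) called 457 genes and 1 member in M1, 117 genes in M2 and 58 genes and 0 members in the difference, in place of 188 and 1. There Cbl (0.36), Itch (0.028) and Cyld (0.033) turned in M1, Cblb (−0.053) in M2, Cbl in Mirc11-/- polarization (0.21), and Cbl (0.74) and Itch (0.14) in the difference, and the Tnip3 difference was 0.56.

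Grouping by the treatment label, which mixes libraries that Nos2 and Mrc1 separate, called 2 genes in M1, 2 in M2, and 0 in both polarization comparisons and the difference, with 0 members in all 5. At an unadjusted p under 0.05 it called 337, 524, 112, 145 and 446 genes and 0, 1, 1, 1 and 1 members, in the order wildtype against Mirc11-/- in M1 and M2, M1 against M2 in wildtype and Mirc11-/-, and the difference. Signs then turned for Cblb (−0.11), Cbl (0.24) and Cyld (0.24) in M1, Itch (0.024) and Usp2 (0.42) in M2, Cbl (0.33) in Mirc11-/- polarization, and Cblb (−0.47), Cbl (0.68) and Ikbkg (0.23) in the difference. In wildtype polarization they turned for Tnfaip3 (−0.56), Tnip1 (−0.59), Tnip3 (−0.062), Tax1bp1 (−0.31), Cyld (−0.21), Cblb (0.43), Itch (0.051), Rnf11 (0.058), Tollip (0.065), Birc3 (−0.60), Traf2 (−0.38), Irak2 (−0.50), Ripk2 (−0.35), Usp2 (0.66), Wwp1 (0.55), Sh3kbp1 (0.35) and Optn (0.48).

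With 1 library left out, the genes called between genotypes ranged from 753 to 1516 in M1 (762 without Wt2261M1, 753 without Ako2272M1) with 1 to 4 members, and from 201 to 480 in M2 (258 without Wt2260M2, 201 without Wt2261M2, 224 without Ako2271M2, 251 without Ako2272M2), and the difference from 79 to 292 (125 without Wt2261M1, 292 without Wt2262M1, 113 without Ako2271M1, 79 without Ako2272M1, 81 without Wt2260M2, 100 without Ako2271M2) with 1 to 2 members (2 without Ako2273M1). Members called in M1 were 2 without Wt2261M1 or Ako2271M1 and 1 without Ako2272M1. Ranges that crossed 0, all for changes not called, were −0.050 to 0.020 for Cyld in M1. In M2 they were −0.057 to 0.065 for Itch, −0.24 to 0.11 for Cbl, −0.065 to 0.055 for Cyld, −0.056 to 0.027 for Tax1bp1 and −0.10 to 0.11 for Cblb. Cbl ranged from −0.11 to 0.19 in wildtype and −0.24 to 0.11 in Mirc11-/- polarization. In the difference they were −0.037 to 0.027 for Rnf11, −0.24 to 0.11 for Cbl, −0.060 to 0.019 for Tollip, −0.068 to 0.051 for Cyld and −0.10 to 0.019 for Itch.

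Titles repeat a number between M1 and M2 of a genotype. Same-numbered libraries did not deviate together throughout (r of deviations from group means 0.21, 0.11 and −0.06 in wildtype, 0.06, −0.18 and −0.29 in Mirc11-/-), and the main fit did not take the numbers as pairs. Single genes did go together. Col1a1 was at 0.496 and 0.686 FPKM in Ako2273M1 and Ako2273M2, against at most 0.0245 FPKM elsewhere. Col1a2 was at 0.436 and 0.547 FPKM, against at most 0.0463 FPKM. Usp18 kept its order by number between M1 and M2 in both genotypes. Tnip3 kept its order in Mirc11-/- (61.9, 59.6 and 56.5 FPKM in M1, 39.0, 38.4 and 35.5 FPKM in M2) but not in wildtype. An r over all genes cannot decide whether same-numbered libraries share a source, and this was not tested. A replicate block gave 7829, 7978 and 151 called genes and 7, 8 and 1 called members for wildtype polarization, Mirc11-/- polarization and the difference, and no call of a member or list gene changed. The genotypes share no numbers, so no block was possible between them. Absolute depth is unknown, and 3 libraries a group limit the precision.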
